A study of Mus musculus with 6 samples.

Results

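Metallothioneins are small, cysteine-rich proteins that bind zinc and copper, and their genes are a standard readout of the zinc response of a cell. The 5 genes described here were chosen by name out of 41128 features listed for mouse embryonic lenses. They are Mt1 and Mt2, which encode the broadly expressed metallothioneins, Mt3, which encodes the form best known from brain, Mtf1, which encodes the zinc-sensing transcription factor MTF1, and Slc30a1, which encodes ZnT1, the zinc exporter of the plasma membrane. All 5 were found in every library. The choice was made with the difference in Mt1 between the groups in view, so the members' values in that comparison are given as a description, with no test.

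Lenses of E15.5 embryos from 2 groups of 3 libraries were compared. Embryos of the conditional knockout, cKO below, had both Itgb1 alleles floxed (Itgb1 encodes β1-integrin) and carried the MLR10 Cre transgene on a mixed strain background, and each library was made from a pool of 30 lenses. The wild-type group was C57Bl/6 without a floxed allele or Cre in its label, with 75 lenses a pool. Genotype, transgene, strain background, pool size and the origin of the wild-type records, which repeat samples of an earlier deposit, all change together between the groups and cannot be told apart. No source used here gives the promoter or other vector parts of the transgene. The age is the same in both groups, and the lenses of a library were pooled, so single animals cannot be compared.

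Values are CPM, the reads of a gene scaled to a library total of 1e6, and RPKM, which is CPM per kilobase of gene length and is used where genes are compared with each other. Depth was 20036554 to 28095318 reads for the cKO libraries, against 10023049 to 11531139 for wild type, so 3 reads correspond to 0.107 to 0.15 CPM and 0.26 to 0.299 CPM. All 12 lens markers examined, among them Cryaa, Mip and Pax6, passed the filter on low values used below. By the calls defined below, 1 was higher and 3, Mip among them, were lower in cKO, against 20.9% and 15.9% of all genes tested. Itgb1, the targeted gene, was at 258 ± 19.8 CPM in cKO against 425 ± 22.97 in wild type (SD, n = 3 each), counted over the whole gene. Nothing in the labels says that the pools came from separate litters, so the spread between libraries may be partly technical.

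When zinc rises in a cell, MTF1 moves to the nucleus and binds metal response elements in the promoters of the metallothionein genes and of Slc30a1. Metallothionein then holds the metal in the cytosol and ZnT1 carries it out of the cell. In most mouse tissues Mt1 and Mt2, which lie side by side, are induced together. The promoters of the 3 genes are shown because the differences measured for Mt1, Mt2 and Slc30a1 were of very unequal size, although all of them carry the core letters of such an element. The sequences are the 250 bases before the RefSeq start on GRCm38.p6, 5′ to 3′ on the plus strand, at chr8:94178839-94179088 for Mt1, chr8:94172368-94172617 for Mt2 and chr1:191906531-191906780 for Slc30a1. Capitals mark each match to TGCACNC or TGCGCNC on either strand.
Mt1: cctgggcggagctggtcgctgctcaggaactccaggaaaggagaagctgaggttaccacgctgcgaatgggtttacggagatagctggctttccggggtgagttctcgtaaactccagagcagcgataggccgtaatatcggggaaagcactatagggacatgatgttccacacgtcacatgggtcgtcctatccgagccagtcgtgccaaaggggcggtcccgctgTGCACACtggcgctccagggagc
Mt2: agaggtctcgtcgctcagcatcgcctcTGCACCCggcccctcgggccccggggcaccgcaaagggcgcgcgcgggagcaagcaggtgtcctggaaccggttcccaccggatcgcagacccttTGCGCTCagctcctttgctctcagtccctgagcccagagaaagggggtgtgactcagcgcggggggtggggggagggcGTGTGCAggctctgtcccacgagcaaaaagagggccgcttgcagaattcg
Slc30a1: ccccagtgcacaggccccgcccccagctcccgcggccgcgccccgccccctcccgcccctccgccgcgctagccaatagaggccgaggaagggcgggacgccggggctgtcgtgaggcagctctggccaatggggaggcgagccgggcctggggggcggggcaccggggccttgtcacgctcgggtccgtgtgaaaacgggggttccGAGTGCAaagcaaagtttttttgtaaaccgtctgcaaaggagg
Further matches lie just after the annotated starts, as in these 30-base stretches at chr8:94179089-94179118 for Mt1 and chr8:94172618-94172647 for Mt2.
Mt1 after the start: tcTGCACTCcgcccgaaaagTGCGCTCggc
Mt2 after the start: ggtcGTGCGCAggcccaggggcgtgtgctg
Over the whole window of 250 bases before and 50 after the start, Mt1 had 3 matches, Mt2 had 4, Slc30a1 had 2, Mt3 had 1 and Mtf1 had 0. Of the 32851 RefSeq promoters of that length, 25.7% held at least 1 match, 7.11% at least 2, 1.97% at least 3 and 0.517% at least 4. A match is a stretch of letters, not a measured binding site, and other annotated Mt1 transcripts start further downstream. The Mt2 window held at least as many matches as that of Mt1 as placed here. Letters more than 50 bases after the annotated Mt1 start were not searched, so sites before the downstream starts can be missed. The counts thus do not compare the full promoters of these genes.

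Mt1 (ENSMUSG00000031765; GRCm38 chromosome 8, 94179082 to 94180327, plus strand, protein coding) stood at 255, 254 and 216 CPM in cKO replicates 1, 2 and 3 and at 0.694, 0.526 and 1.2 CPM in wild-type replicates 1, 2 and 3. Every cKO library lay far above every wild-type library, and the lowest cKO library was replicate 3. The reads behind these values were 5109, 5132 and 6072 in cKO and 8, 6 and 12 in wild type. The wild-type level thus rested on 26 reads in all, above the floor of 3 in each library but with a wide counting error. Over the summed reads the cKO level was 303-fold higher, with a 95% counting interval of 206 to 463 (exact binomial, covering counting error only). On the scale of log2(CPM + 1), which shrinks the change of a gene this low in wild type, the difference was 7.08 (SE 0.13). It ranked 1 in size among the 11941 genes tested, those reaching 1 CPM or more in 3 or more libraries. Mt1 passed that filter through the cKO libraries and 1 wild-type library. Per length, Mt1 stood at 447 ± 40.97 RPKM in cKO and ranked 59 of all features, against 1.49 ± 0.647 RPKM and rank 9278 in wild type (SD, n = 3 each). In a bulk lens library more RNA per cell and more cells that hold the RNA cannot be told apart. None of the 50-base words of Mt1 transcripts, the length of the reads, occurred in an annotated transcript of another gene, with 0 of 1292 words shared. Only annotated mouse transcripts were searched, not the sequence of the transgene, so the search says nothing on reads that could come from it.

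Mt2 (ENSMUSG00000031762; chromosome 8, 94172664 to 94173568, plus strand), whose end lies 5513 bases before the start of Mt1, was almost without reads in both groups. It was at 0.399, 0.445 and 0.142 CPM in cKO (8, 9 and 4 reads) against 0.26, 0.175 and 0.2 in wild type (3, 2 and 2 reads). The groups overlapped, and the lowest library of all was a cKO library, replicate 3, in which Mt1 reached 216 CPM. The summed reads, 21 in cKO and 7 in wild type, gave a ratio of 1.45 with a 95% counting interval of 0.593 to 4.03. That interval, like the one of Mt1, covers counting error only, and Mt1 and Mt2 were not tested against each other. Per length, Mt1 exceeded Mt2 by 658, 587 and 1563 times in cKO replicates 1, 2 and 3 and by 2.75, 3.09 and 6.18 times in wild-type replicates 1, 2 and 3. The pair of neighbours thus had unequal levels in cKO and levels near the detection limit in wild type. Of the 50-base words of Mt2, 45.8% also occur in Gm45774, an annotated antisense gene over the same bases that was not analysed here, and the library kit is one that does not mark strand. Gm45774 is not among the 17 genes of the deposited files placed within 250 kb of Mt1. No source used here says how reads over Mt2 and Gm45774 were counted, and the part of Gm45774 in the low Mt2 level was not tested.

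Mt3 (ENSMUSG00000031760; chromosome 8, 94152607 to 94154146, plus strand) was as scarce as Mt2. Its level was 0.299, 0.198 and 0.498 CPM in cKO (6, 4 and 14 reads) against 0.78, 0.438 and 0.0998 in wild type (9, 5 and 1 reads). Wild-type replicates 1 and 3 were the highest and the lowest of the 6 libraries, so the spread within wild type covered the whole cKO range. The ratio of summed reads was 0.772, with a 95% counting interval of 0.389 to 1.58. Mt4, which encodes the metallothionein of stratified epithelia, was at 0 reads in all 6 libraries, which allows up to 0.0439 CPM over the cKO reads and 0.091 CPM over the wild-type reads. Of the reads counted over Mt1, Mt2 and Mt3 together, Mt1 took 99.7% in cKO replicate 1, 99.8% in replicate 2 and 99.7% in replicate 3. In wild type its part was 40% in replicate 1, 46.2% in replicate 2 and 80% in replicate 3.

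**Figure D1:**
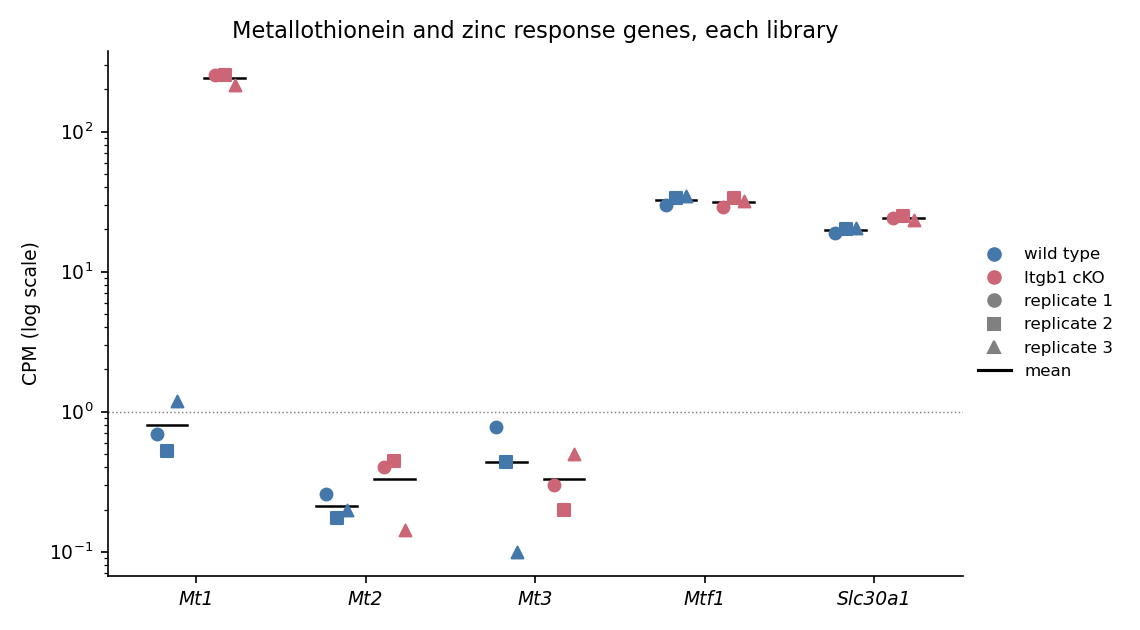
CPM of the 5 genes in each library on a log axis, with wild type in blue, cKO in red, 1 symbol per replicate number and a black line at the mean of 3 libraries; the dotted line is 1 CPM. Mt1 lies at 0.526 to 1.2 CPM in wild type and at 216 to 255 CPM in cKO, whereas Mt2 and Mt3 stay under 1 CPM in all 6 libraries and Mtf1 and Slc30a1 stay between 18.9 and 34.4 CPM.

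Mtf1 (ENSMUSG00000028890; chromosome 4, 124802104 to 124849800, plus strand), the sensor and activator, was at 28.7, 33.7 and 31.7 CPM in cKO against 29.9, 33.7 and 34.4 in wild type. The groups overlapped almost fully. The log2 difference was -0.06 (SE 0.09). The difference in its mRNA level was smaller than the spread between libraries, and the protein was not measured. Reads of Mtf1 include a part, 7.55% of its words, that is shared with 1110065P20Rik, an overlapping gene on the opposite strand that was at 6.1 ± 0.668 CPM in cKO against 5.19 ± 0.332 in wild type (SD, n = 3 each).

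Slc30a1 (ENSMUSG00000037434; chromosome 1, 191906767 to 191913247, plus strand), the exporter, was at 24.1, 24.9 and 23.5 CPM in cKO against 18.9, 20.2 and 20.4 in wild type. All cKO libraries lay above all wild-type libraries, by a margin of a few CPM. The log2 difference was 0.27 (SE 0.09), or 0.24 to 0.29 when any 1 library was left out, and the ratio of summed reads was 1.22 (95% counting interval 1.11 to 1.34). The difference was larger in size in 38.7% of all genes tested. An antisense gene, 1700034H15Rik, overlaps its 5′ end, holds 8.01% of its words and was at 1.37 ± 0.271 CPM in cKO against 1.02 ± 0.471 in wild type (SD, n = 3 each). Of the 5 members, 3 passed the filter on low values, and the groups did not overlap for 2 of those, against 48.1% of all genes that passed it. Because the members were chosen from the same comparison, nothing is read from this count. By length-scaled level in cKO, Mt1 came first, then Slc30a1 at 4.61 ± 0.13 and Mtf1 at 3.52 ± 0.279 RPKM, and then Mt3 at 0.617 ± 0.284 and Mt2 at 0.592 ± 0.294 RPKM, the last pair with overlapping libraries. In wild type the order was Slc30a1 (3.78 ± 0.15) and Mtf1 (3.67 ± 0.271), which overlapped, then Mt1, Mt3 (0.817 ± 0.633) and Mt2 (0.381 ± 0.0786 RPKM), with Mt3 overlapping both Mt1 and Mt2.

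For genes other than the members, called means an adjusted p under 0.05 by limma, which held for 36.9% of all genes tested. Tested genes near Mt1 had log2 differences between -0.39 and 0.37. The deposited files list 17 other genes within 250 kb of Mt1, of which 8 could be tested, and 1 was higher and 1 lower in cKO, against 20.9% and 15.9% of all genes tested. The higher gene was Nudt21, which encodes a subunit of a pre-mRNA cleavage factor, at 51.02 ± 3.63 CPM in cKO against 39.2 ± 1.99 in wild type (SD, n = 3 each; log2 fold change 0.37, adjusted p = 0.00367 by limma). The lower gene was Nup93, a nuclear pore gene and the nearest tested gene, 34237 bases from Mt1, at 38.4 ± 4.28 and 48.2 ± 1.79 CPM (log2 fold change -0.33, adjusted p = 0.0125 by limma), a call lost without wild-type replicate 2. Gnao1, Ogfod1 and Bbs2 were not called, with log2 differences of 0.07, 0.11 and 0.11, and neither were Herpud1, at 46.9 and 46.8 CPM, and 9330175E14Rik, at 2.09 and 3.15 CPM. The median over the 8 was 0.033, and that of all genes tested was 0.026. The distance from Mt1 to Itgb1, which lies on the same chromosome, is 34.5 Mb.

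**Figure D2:**
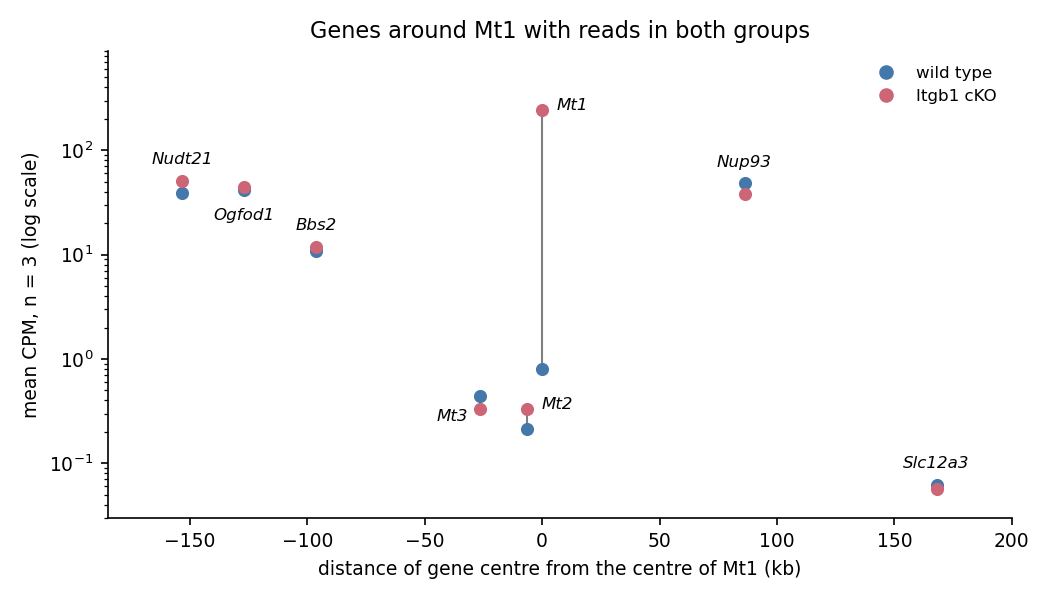
Mean CPM in wild type (blue) and cKO (red), n = 3 each, on a log axis, for Mt1 and the genes whose nearer end lies within 150 kb of it and that had reads in both groups, placed by the distance of the gene's centre from that of Mt1. The grey line joining the means is long for Mt1, 0.806 to 242 CPM, and short for its neighbours, including Mt2 at 0.212 and 0.329 CPM.

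Zinc transporters other than Slc30a1 fall in the Slc30 family, whose members move zinc out of the cytosol into vesicles or out of the cell, and the Slc39 family, whose members move it into the cytosol. Of 23 such genes listed, 16 could be tested, and 4 were higher and 1 lower in cKO, against 20.9% and 15.9% of all genes tested. The median log2 difference was -0.01. Within the Slc30 family 3 of 6 were higher and 0 lower (median 0.33), and within the Slc39 family 1 of 10 was higher and 1 lower (median -0.01). Whether the families differ from each other was not tested.

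Slc30a7, which encodes a transporter of the early secretory pathway, was at 122, 133 and 131 CPM in cKO against 66.7, 74.5 and 70.4 in wild type. The libraries of the groups were well apart, with a log2 fold change of 0.86 (SE 0.08, adjusted p = 3.06e-06 by limma). Slc30a10, best known as a manganese exporter, was at 25.9, 27.1 and 26.9 CPM against 13.01, 16.3 and 12.5 CPM. That difference was 0.90 on the log2 scale (SE 0.11, adjusted p = 3.69e-05 by limma). Slc30a4, which encodes a transporter of endosomal and secretory vesicles, rose as well, to 41.3 ± 2.15 CPM from 24.6 ± 3.37 CPM in wild type (SD, n = 3 each; log2 fold change 0.73, adjusted p = 0.000142 by limma). Slc39a8, which encodes an importer of zinc and manganese, rose to 7.14 ± 1.01 CPM from 4.32 ± 1.05 CPM in wild type (log2 fold change 0.62, adjusted p = 0.00654 by limma). These 4 genes kept their call under all 15 alternatives, with log2 differences of 0.82 to 0.90 for Slc30a7, 0.83 to 1.01 for Slc30a10, 0.62 to 0.79 for Slc30a4 and 0.52 to 0.78 for Slc39a8. The importer gene Slc39a6 was the 1 lower gene, at 37.6 ± 3.35 CPM in cKO against 44.6 ± 2.2 in wild type (log2 fold change -0.24, adjusted p = 0.0414 by limma), a call lost without the filter and on leaving out any of cKO replicates 1 and 3 and wild-type replicates 2 and 3. Slc39a1, the highest of the tested transporters per length, was at 40.5 RPKM in cKO and 36.7 RPKM in wild type and was not called (log2 difference 0.14, adjusted p = 0.14 by limma). Slc30a5, Slc30a6 and Slc30a9 were not called either, at -0.09, -0.21 and -0.08 on the log2 scale.

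**Figure D3:**
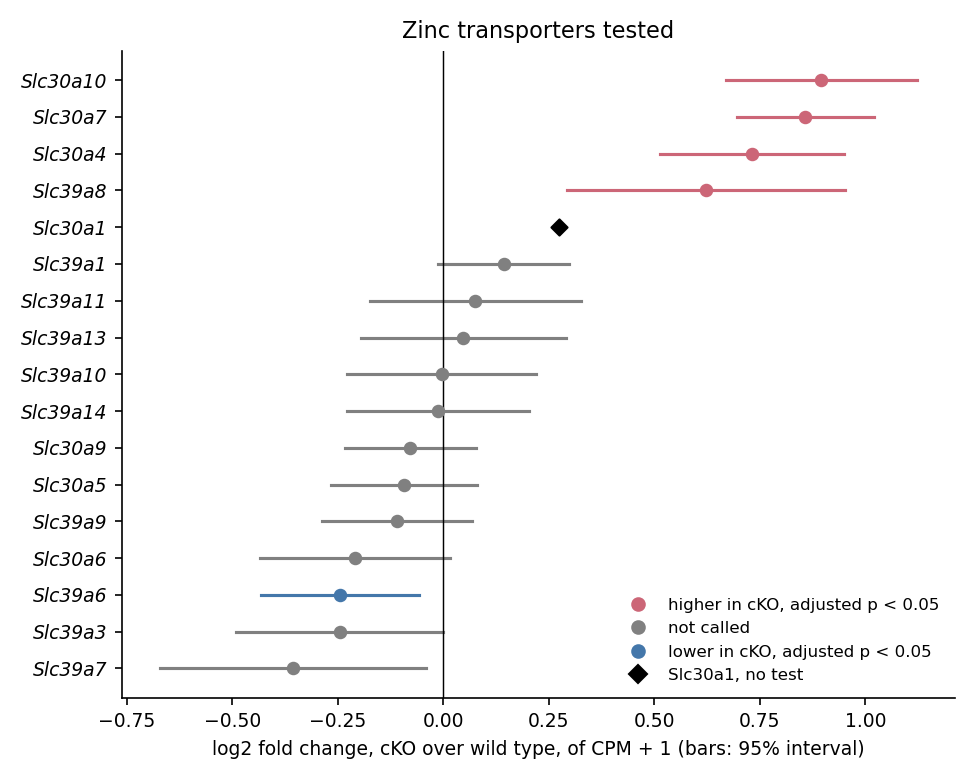
Log2 fold change of CPM + 1, cKO over wild type, with its 95% interval, for the 16 zinc transporters tested and Slc30a1 (black diamond, with no interval or test); red marks genes called higher, blue lower and grey not called. Slc30a10, Slc30a7, Slc30a4 and Slc39a8 lie at 0.62 to 0.90, above Slc30a1 at 0.27, and the other genes lie at -0.36 to 0.14.

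Promoters of 19 of these 23 transporters were in the RefSeq table, and 10 of them (52.6%) held at least 1 of the core letters searched above, against 28.2% of all genes. Slc30a10 and Slc30a4 had 3 matches each and Slc30a7 had 0, so among the 3 higher Slc30 genes matches were both many and missing.

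Of 7 other genes linked to MTF1, 6 could be tested, with 1 higher and 1 lower, against 20.9% and 15.9% of all genes tested, and a median log2 difference of 0.02. Slc39a10, an importer gene of the transporter list that MTF1 is known to repress, was at 62.7, 78.2 and 75.7 CPM in cKO against 63.05, 74.2 and 80.1 in wild type, so the groups overlapped fully. Gclc, which encodes the catalytic subunit of the first enzyme of glutathione synthesis, was at 37.3 ± 1.78 and 34.7 ± 0.494 CPM (SD, n = 3 each; log2 difference 0.10, adjusted p = 0.344 by limma). The selenoprotein W gene Sepw1 was at 343 ± 13.2 and 333 ± 19.3 CPM (log2 difference 0.04). Ndrg1, a stress-responsive gene, fell to 79.98 ± 4.98 CPM from 108 ± 5.33 CPM in wild type (log2 fold change -0.42, adjusted p = 0.00102 by limma). Csrp1, which encodes a LIM domain protein, was called higher at 0.50 (adjusted p = 0.0397 by limma) with overlapping groups, and 7 of 15 alternatives lost the call, among them leaving out cKO replicate 2, cKO replicate 3 or any of the wild-type libraries.

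Copper handling genes had 2 of 10 higher and 1 lower, against 20.9% and 15.9% of all genes tested, and a median log2 difference of 0.11. Cox17, which encodes a copper chaperone for cytochrome oxidase, rose to 7.07 ± 0.579 CPM from 4.64 ± 0.584 CPM in wild type (SD, n = 3 each; log2 fold change 0.52, adjusted p = 0.00649 by limma). The copper importer gene Slc31a1 was called at 0.32 (adjusted p = 0.0436 by limma) and Sod1, which encodes the copper and zinc superoxide dismutase, at -0.21 (adjusted p = 0.0407 by limma). Of the 15 alternatives, 10 lost the Slc31a1 call and 6 the Sod1 call, and both were lost without the filter and on leaving out any of cKO replicates 1 and 3 and wild-type replicate 1. Commd1, which encodes a regulator of copper export, was at 11.1 ± 1.22 and 9.17 ± 0.773 CPM and was not called (adjusted p = 0.1 by limma).

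Metallothionein genes are also known to respond to oxidants and heavy metals, to glucocorticoids and to cytokines that act through STAT3, and genes of those responses were counted as well. Oxidative and metal stress genes had 1 of 12 higher and 6 lower, against 20.9% and 15.9% of all genes tested, with a median log2 difference of -0.31. Slc7a11, which encodes the cystine importer, was at 55.4, 67.4 and 61.4 CPM in cKO against 138, 155 and 175 in wild type (log2 fold change -1.33, SE 0.10, adjusted p = 5.37e-07 by limma). Me1, which encodes an enzyme that makes NADPH, fell by 0.62 and Txnrd1, which encodes thioredoxin reductase, by 0.50 on the log2 scale. The other lower genes were Nfe2l2 (-0.37, adjusted p = 0.00447), Keap1 (-0.64, adjusted p = 0.00597) and G6pdx (-0.28, adjusted p = 0.0499, all by limma). Nfe2l2 and Keap1 encode the activator of the oxidative stress response and its repressor, so the 6 lower genes include regulators of that response. Gsr, which encodes glutathione reductase, was the 1 higher gene and rose to 45.3 ± 2.02 CPM from 31 ± 0.518 CPM in wild type (SD, n = 3 each; log2 fold change 0.53, adjusted p = 0.000212 by limma). Hmox1, which encodes the heme oxygenase induced by metals and oxidants, was at 92.9, 73.6 and 107.8 CPM in cKO against 99.4, 120.4 and 78.3 in wild type, with overlapping groups. Glucocorticoid response genes had 1 of 9 higher and 1 lower (median -0.02), against the same 20.9% and 15.9%. Fkbp5, a classical target of the glucocorticoid receptor, fell by 0.31 on the log2 scale (adjusted p = 0.0149 by limma), a call lost without cKO replicate 1. Ddit4, a stress gene that glucocorticoids induce, was called higher at 0.25 (adjusted p = 0.0467 by limma) with overlapping groups, and 10 of 15 alternatives lost the call. The receptor gene Nr3c1 was not called at 0.28 (adjusted p = 0.0567 by limma). Tsc22d3 was at 22.5 ± 1.75 and 22.8 ± 0.971 CPM and Per1 at 43.04 ± 2.22 and 43.6 ± 1.7 CPM. Of 8 acute phase and STAT3 genes, 4 could be tested, with 1 higher and 1 lower, again against 20.9% and 15.9%. Lcn2, Saa3, Bcl3 and Cebpb were too low to be tested. The receptor gene Osmr was called at 0.52 (adjusted p = 0.017 by limma), a call lost with DESeq2 and on leaving out either cKO replicate 3 or wild-type replicate 1, and Il6st, which encodes the shared receptor subunit gp130, fell by 0.41 on the log2 scale (adjusted p = 0.00835 by limma). Stat3 itself was at 30.1 ± 2.7 and 26.02 ± 2.38 CPM and its target Socs3 at 19.99 ± 1.78 and 17.03 ± 0.668 CPM, and neither was called.

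Among markers of other cells, most endothelial, pericyte and macrophage markers tested were higher in cKO, with list medians of 0.61, 0.58 and 0.77 on the log2 scale. Erythroid and periocular mesenchyme markers had calls in both directions, with similar medians of 0.81 and 0.74. The retina and pigment epithelium lists had only lower calls or no calls. All counts below stand against 20.9% higher and 15.9% lower over all genes tested. Endothelial markers had 10 of 12 higher and 0 lower, with a summed level of 245 to 291 CPM in cKO and 151 to 185 CPM in wild type. The endothelial junction gene Cdh5 was at 41.8 and 26.7 CPM and the receptor gene Tek at 37.5 and 17.8 CPM in cKO and wild type. Pericyte markers had 5 of 6 higher (125 to 143 against 67.8 to 75.9 CPM) and macrophage markers 8 of 9 tested higher (26.6 to 35.98 against 11.2 to 14.3 CPM). Rgs5, a pericyte gene, was at 87.3 and 41.4 CPM, and Csf1r, the macrophage growth factor receptor, at 5.47 and 2.27 CPM. Erythroid markers had 3 of 7 higher and 1 lower (410 to 660 against 263 to 298 CPM). The lower one was the globin gene Hba-a2, at 36.3 and 51.2 CPM in cKO and wild type. The globin gene Hba-a1 was called higher, at 85.9 and 47.1 CPM, and how reads were divided between Hba-a1 and Hba-a2 was not examined. Periocular mesenchyme markers had 3 of 5 tested higher and 1 lower, out of 8 listed, with Foxc2 at 0 reads. Their summed level (189 to 224 against 206 to 249 CPM) was mostly Pdgfra, the lower gene, at 172.6 and 210.6 CPM in cKO and wild type, whereas Foxc1 was at 10.7 and 5.46, Prrx1 at 2.16 and 0.934 and Col3a1 at 11.6 and 3.96 CPM, all called higher. Col1a1 was at 4.61 and 2.13 CPM and not called, and Twist1, not tested, was at 0.929 and 0.087 CPM. Of 10 neural retina and glia markers, 4 could be tested, with 0 higher and 3 lower (9.18 to 17.6 against 14.8 to 24.6 CPM). Of 8 pigment epithelium markers, 2 could be tested and 0 were called (27.2 to 32.5 against 27.5 to 35.4 CPM), with Rpe65 at 0 reads. The part of these cells in the Mt1, Slc30a1 and transporter differences was not tested.

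**Figure D4:**
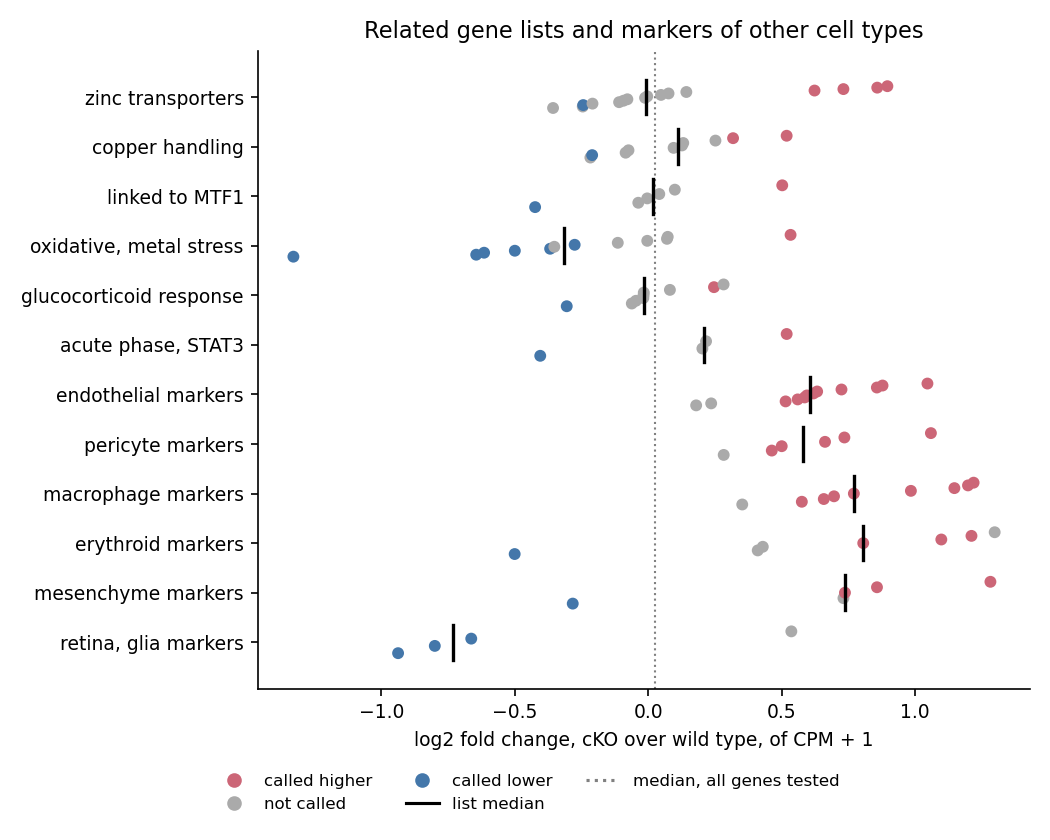
Log2 fold change of CPM + 1, cKO over wild type, of every tested gene in the lists related to metallothionein and in the marker lists of other cell types except pigment epithelium; points are genes, spread vertically for sight only, red called higher, blue called lower and grey not called, black bars are list medians and the dotted line is the median of all genes tested. The zinc transporter median lies at -0.01 with 4 genes at 0.62 or above, and the oxidative and metal stress median lies at -0.31. The endothelial, pericyte and macrophage medians lie at 0.58 to 0.77, the erythroid median at 0.81 and the mesenchyme median at 0.74.

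The genes whose levels lay nearest to those of Mt1 were sought among all genes tested, by the Euclidean distance of log2(CPM + 1) over the 6 libraries. They were Fgf12, a fibroblast growth factor homologous gene, at a distance of 4.04, the long noncoding gene model Gm26825 (4.14), Gm10073 (4.57), Nmb, which encodes neuromedin B (4.79), and Egr1, an immediate early transcription factor gene (4.83). None of them matched Mt1 closely. Their mean cKO levels were 59.01, 50.8, 38.3, 39.1 and 81.02 CPM in that order, against 242 CPM for Mt1. In wild type they were at 2.67, 0, 0.59, 2.07 and 7.44 CPM. The 6 libraries fall in 2 groups, and no test goes with this ranking.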

How the data were processed

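RNA of pooled E15.5 lenses was sequenced as 50-base single-end reads from poly(A) libraries made with a kit that does not mark strand, per the labels' protocols. The authors deposited CPM values per gene and RPKM values per gene, per the file headers; edgeR and GRCm38 are named in the submitters' processing notes, and no source used here names the aligner or counter. CPM values were whole multiples of 1 read (100% within 0.05 reads), so reads were recovered from them for the count methods; 0.192% to 0.208% of reads had no Ensembl identifier. Of 41128 features, 37667 were found in GENCODE M21, which gave coordinates.

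The members and the gene lists were chosen with earlier results of these data known. Genes reaching 1 CPM or more in 3 or more libraries were tested with limma 3.58.1 in R 4.3.3 on log2(CPM + 1), with a mean trend, robust variances and Benjamini-Hochberg adjustment over all 11941 genes; calls are at 0.05. Differences are on that scale, which understates changes of low genes. The rule for named genes took the members, Itgb1, the 4 lowest adjusted p-values in each list, neighbours of Mt1 within 250 kb (1 result is not reported here), the 5 profiles nearest to Mt1, the leading 3 markers by CPM and other Slc30 and Slc39 genes; of the leading markers a few are given. Hmox1, Keap1, Nfe2l2, G6pdx, Lcn2, Saa3, Bcl3, Cebpb, Tsc22d3, Per1, Mip, Pax6 and Mt4 were added outside it, after their values were seen. Alternatives were RLE and TMM scaling, no filter, a filter at a mean of 5 CPM, the pseudocount 0.1, a replicate block, limma-voom, DESeq2 1.42.0, edgeR 4.0.16 quasi-likelihood and leaving out each library. Scripts were tested on simulated data. Libraries correlated at 0.992 to 0.996 within and 0.971 to 0.976 between groups.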

Additional observations from a re-analysis of the deposited data

How the results depend on the processing

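The Mt1 difference was 6.97 to 7.23 when any 1 library was left out, 8.12 with a pseudocount of 0.1 and 8.23 with DESeq2. Slc30a1 stood at 0.26 with DESeq2 and at 0.24 to 0.29 leaving out 1 library. Mt2 moved to 0.38 with a pseudocount of 0.1 and to between 0.06 and 0.23 leaving out 1 library, Mt3 to between -0.27 and 0.08, and Mtf1 to between -0.12 and 0.0026, the last without cKO replicate 1. Mt2 and Mt3 did not pass the filters of the count methods, so they have no value there.

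Lower zinc transporters numbered 2 with RLE, TMM, limma-voom and edgeR and 0 to 1 leaving out 1 library. Higher copper genes numbered 1 with RLE, TMM, no filter, limma-voom, DESeq2 and edgeR and 1 to 2 leaving out 1 library; lower copper genes numbered 0 without the filter and 0 to 1 leaving out 1 library. Higher MTF1-linked genes numbered 0 without the filter and with limma-voom, and 0 to 1 leaving out 1 library. Higher glucocorticoid genes numbered 0 with RLE, TMM, no filter, limma-voom, DESeq2 and edgeR, and both directions 0 to 1 leaving out 1 library. Higher acute phase genes numbered 0 with the 5 CPM filter on the mean, 0 with DESeq2 and 0 to 2 leaving out 1 library, and lower neighbours of Mt1 0 to 2. Lower oxidative and metal stress genes numbered 5 without the filter, with a pseudocount of 0.1, with the replicate block and with DESeq2. They numbered 5 to 6 leaving out 1 library. The cause of these shifts was not tested.

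Over all genes, 2499 higher and 1904 lower calls became 2401 and 2379 with RLE and 2388 and 2388 with edgeR. Of 20 called genes outside the members that were followed gene by gene, 12 kept direction and call under every alternative that tested them. Other called genes named above, such as Nfe2l2, Keap1, G6pdx and the markers of other cells, were not followed in this way. Same-numbered libraries correlated at 0.33, -0.03 and 0.15 in their deviations, so the numbers were not taken to pair them. The replicate block gave 2916 higher and 2249 lower genes. In this balanced design a block cannot change a log2 difference, so the members' unchanged values are no check. Few reads limit Mt2, Mt3 and wild-type Mt1.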

Other observations

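Genes that were nearly without reads in one group only were listed after their values were seen. Under 2 CPM in every wild-type library and at least 10 CPM in every cKO library were 5 genes, Eif3j2, Gm10073, Gm26825, Mt1 and Nab2, and Mt1 was the 1 gene to reach at least 100 CPM. In the reverse direction there were 5 genes at 10 CPM, Abca13, Eif3j1, Gm14296, Ndufs5 and Rpl29, and 0 at 100 CPM. Eif3j1 and Eif3j2 are near-identical copies, and how their reads were divided is uncertain. The zinc transporter gene Slc30a3 was too low to be tested, with 0, 0 and 2 reads in cKO and 9, 9 and 7 reads in wild type.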
